A study of Mus musculus with 12 samples.

Results

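Antiviral interferon-stimulated genes are the genes that cells switch on after sensing interferon. In the usual order of events, a cell that detects foreign or misplaced nucleic acid secretes type I interferon, the IFNAR receptor of the same or a neighbouring cell activates JAK1 and TYK2, and a complex of STAT and IRF proteins binds the interferon-stimulated response element in many promoters. Many of the products bind viral RNA, edit or degrade it, halt translation or hold virus particles in membranes, and a low basal level is present in unstimulated B cells. A list of 47 such genes, given by symbol, was taken from a count table of 46983 mouse genes. All 47 matched an identifier in the table and all 47 passed the filter on low counts.

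The libraries came from B cells of mouse bone marrow, which the labels describe as sorted by MACS (magnetic beads) and the study's methods as enriched with antibody-coated beads. The groups were WT cells in normoxia, WT cells in hypoxia, HIF1a KO cells in normoxia and HIF1a KO cells in hypoxia, with 3 libraries in each and 12 in all. In the study the isolated B cells were cultured in normoxia or hypoxia, so the cells and not the mice were exposed. In the study's mice the deletion came from floxed Hif1a alleles cut by Mb1-cre, which sits in the Cd79a locus and is active in the B lineage only, and the study's controls were littermates that lacked cre or carried it in 1 copy. Neither the strain nor the age of these mice is in the labels, and whether each library is 1 mouse is not stated, so every p-value reflects the scatter of these libraries alone, which may be technical. HIF-1α is stabilised when oxygen is low and switches on much of the response to it, and the comparison of the 4 groups asks which genes change with oxygen and which of these changes differ when HIF-1α is missing.

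Total counts were 27629175 to 36880082 per library. The summed level of 8 B cell markers was 5828 to 8494 CPM (the usual read count scaled to library size, here with TMM factors) in the 12 libraries. Hif1a counts were not lower in KO libraries (111 ± 2.57 CPM in normoxia and 128 ± 7.79 in hypoxia, SD, n = 3) than in WT libraries (89.6 ± 6.25 and 93.0 ± 15.1), and a count over the whole gene does not resolve the deleted part, so it does not check the label. Cd79a, whose locus holds the cre insertion, was lower in KO than in WT libraries, with log2 differences of -1.02 ± 0.10 in normoxia and -0.93 ± 0.10 in hypoxia (edgeR quasi-likelihood test, adjusted p = 0.000984 and 0.000169). Y-linked genes were read in WT libraries 1 and 2 of both conditions (310 to 396 CPM) and at 46.0 CPM in KO hypoxia library 1, and were at 0 in the other 7 libraries, so a comparison of genotypes is in part a comparison of libraries with and without Y-linked reads. Xist, the X-inactivation transcript, was at 0.591 to 0.76 CPM in WT libraries 1 and 2 of both conditions. It was at 1358 to 2154 CPM in all other libraries, with 1786 CPM in KO hypoxia library 1, which thus had both Xist and Y-linked reads. Sex is not in the labels. Within KO hypoxia the libraries stood apart in the members: library 2 was the lowest of the 3 for 44 of 47 members and library 3 the highest for 46 of 47. In WT hypoxia library 2 was also the lowest for 44 of 47, and library 3 the highest for 33. The median log2 deviations of libraries 2 and 3 from the group mean were -0.268 and 0.198 in WT hypoxia and -0.465 and 0.484 in KO hypoxia.

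The promoters of these genes were compared first. Windows of 250 bases before to 50 bases after the transcription start, from RefSeq on GRCm38.p6, were found for 38 of the 47 members, 6 of them with several windows. The core of the interferon-stimulated response element, searched on both strands as GAAA, any 2 bases and GAAA again, was present in 16 of the 38 members (42.1%), against 3.99% of the 27025 genes with a window. Of the 11485 genes with a window that passed the filter on low counts, as all members did, 3.89% had it. The STAT core TTCNNNGAA was present in 8 of 38 (21.05%, against 9.55% of genes and 8.55% of those past the filter). The cores of the hypoxia response element were at lower shares in members than in all genes: ACGTG was in 4 of 38 (10.53%, against 21.78%) and GCGTG in 11 of 38 (28.95%, against 35.15%). Among genes past the filter the shares were 28.11% for ACGTG and 52.93% for GCGTG. A match is a run of letters and not a measured binding site. The members printed here are the 6 with a match to the interferon element and the smallest adjusted p in the WT comparison, at most 1 from a functional class, each with its stretch around the match, and 1 member without a match. Capitals mark the match, which reads TTTC, 2 bases and TTTC where it lies on the other strand.
Phf11b (chr14:59341341-59341450, minus strand, -120 to -11 from the start): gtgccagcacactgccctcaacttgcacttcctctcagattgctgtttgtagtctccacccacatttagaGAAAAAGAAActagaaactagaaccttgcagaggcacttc
Cxcl10 (chr5:92349063-92349139, minus strand, -250 to -174): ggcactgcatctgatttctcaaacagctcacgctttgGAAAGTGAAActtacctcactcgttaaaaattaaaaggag
Isg15 (chr4:156200845-156200954, minus strand, -136 to -27): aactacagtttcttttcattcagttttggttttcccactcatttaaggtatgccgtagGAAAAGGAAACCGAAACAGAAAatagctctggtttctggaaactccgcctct
Ifit3b (chr19:34607733-34607842, plus strand, -224 to -115): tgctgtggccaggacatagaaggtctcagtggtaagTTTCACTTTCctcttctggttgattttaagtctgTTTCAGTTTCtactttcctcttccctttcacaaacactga
Trim30a (chr7:104465194-104465303, minus strand, -110 to -1): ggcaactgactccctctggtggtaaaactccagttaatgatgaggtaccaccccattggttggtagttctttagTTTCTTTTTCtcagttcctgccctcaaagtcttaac
Oas1g (chr5:120887614-120887723, minus strand, -110 to -1): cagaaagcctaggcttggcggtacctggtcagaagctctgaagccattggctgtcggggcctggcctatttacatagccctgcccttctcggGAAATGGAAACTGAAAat
Ube2l6, no match (chr2:84798718-84798827, plus strand, -110 to -1): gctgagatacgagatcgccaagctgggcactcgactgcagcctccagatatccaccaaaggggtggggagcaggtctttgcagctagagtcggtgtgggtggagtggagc

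In the Isg15 stretch 3 overlapping matches followed each other, and Ifit3b and Oas1g had 2 each. Usp18, Oas1b, Oas2, Mx1, Mx2, Ifi27, Ifi27l2a, Rtp4 and Ifi204 had no window in the table.

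These genes were far lower in hypoxia than in normoxia in both genotypes. The 47 members together took 14963 ± 1676 CPM in WT normoxia and 4920 ± 522 CPM in WT hypoxia (SD, n = 3), or 1.36 to 1.68% of scaled reads against 0.433 to 0.533%. In KO cells the sum was 16731 ± 668 CPM in normoxia and 4105 ± 920 CPM in hypoxia. The normoxic and hypoxic libraries did not overlap in either genotype. B cell markers moved far less, from 7766 ± 635 to 6692 ± 433 CPM in WT and from 6992 ± 353 to 5924 ± 161 CPM in KO. Their sums were lower in hypoxia in both genotypes, also without overlap between normoxic and hypoxic libraries. In bulk samples, fewer cells that express a gene and less RNA per cell cannot be told apart.

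**Figure D1:**
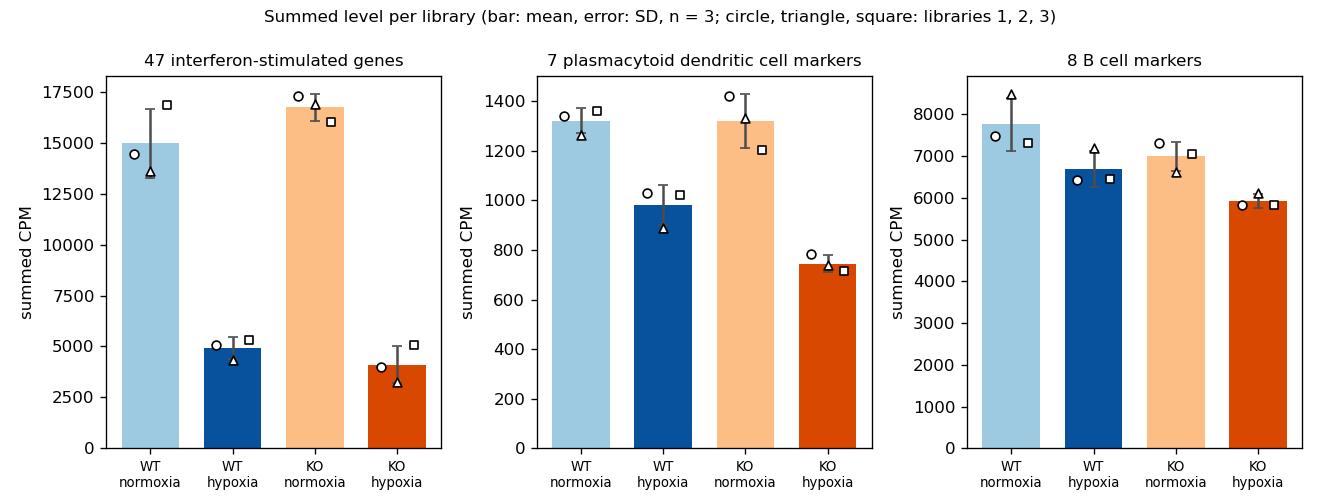
Summed CPM per library (y axis) of the 47 interferon-stimulated genes, of 7 plasmacytoid dendritic cell markers and of 8 B cell markers in the 4 groups (x axis); bars are means, error bars SD (n = 3) and symbols the libraries. The interferon-stimulated genes sat at 13623 to 17301 CPM in the 6 normoxic libraries and at 3245 to 5331 CPM in the 6 hypoxic ones, and the plasmacytoid dendritic cell markers were also lower in every hypoxic library.

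In WT cells 45 of the 47 members were called lower in hypoxia (edgeR quasi-likelihood test, adjusted p under 0.05 over 17506 genes), where 16.3% of all genes were. The members were chosen with earlier results of these data known, so their contrast with all genes, here and in KO, is a description. The called falls had adjusted p-values of 7.09e-08 to 0.00291. A fall of more than 2-fold was called for 42 members, against 3.19% of all genes. The median log2 change of the members was -2.16, where the median of all genes was 0.01. Hypoxic and normoxic libraries did not overlap for 45 members that were lower, which held for 20.8% of genes. Each pair of same-numbered WT libraries had 46 of 47 members lower in hypoxia, with median log2 differences of -2.03, -2.43 and -2.29. The exceptions were Ifi27, which rose (11.4% of all genes were called higher), and Cxcl9, which did not pass the test.

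Hypoxia lowered 46 of 47 members in KO cells (15.7% of all genes were called lower), and 45 of these falls exceeded 2-fold (4.59% of genes). No member was called higher, where 14.5% of genes were. The median log2 change was -2.86 against 0.04 for all genes, and 46 members had lower hypoxic libraries with no overlap (24.8% of genes). Cxcl9 was called here and Ifi27 was not. The heat map by library shows the fall in every functional class, and the plot of fold changes shows its size for each gene.

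**Figure D2:**
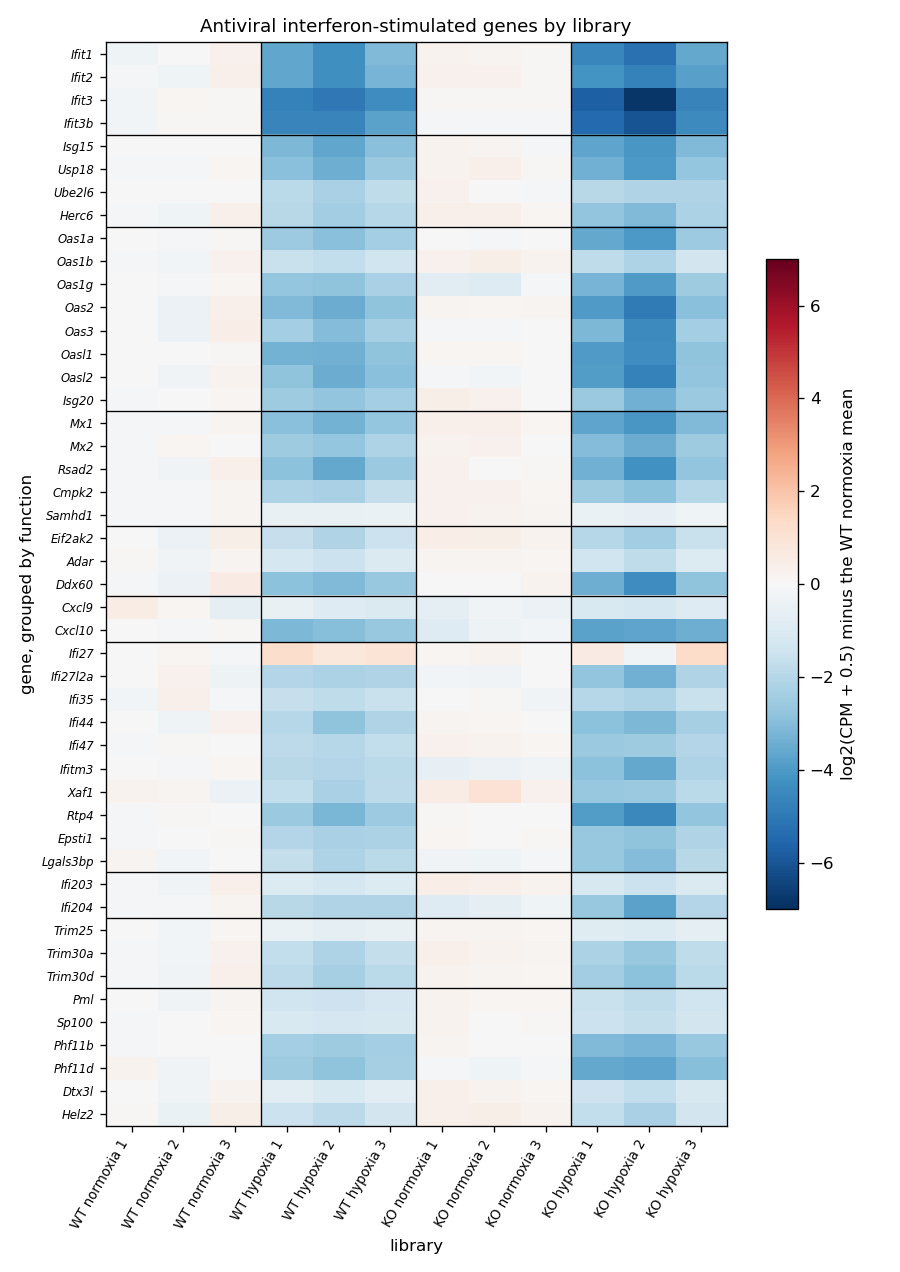
Each row is a member, grouped by function with black lines, and each column a library; colour gives log2(CPM + 0.5) minus the mean of the 3 WT normoxia libraries, from blue (lower) to red (higher). The 6 hypoxic columns are blue for nearly all rows, deepest in the Ifit rows and in KO hypoxia library 2, and Ifi27 is the row that is red in WT hypoxia.

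**Figure D3:**
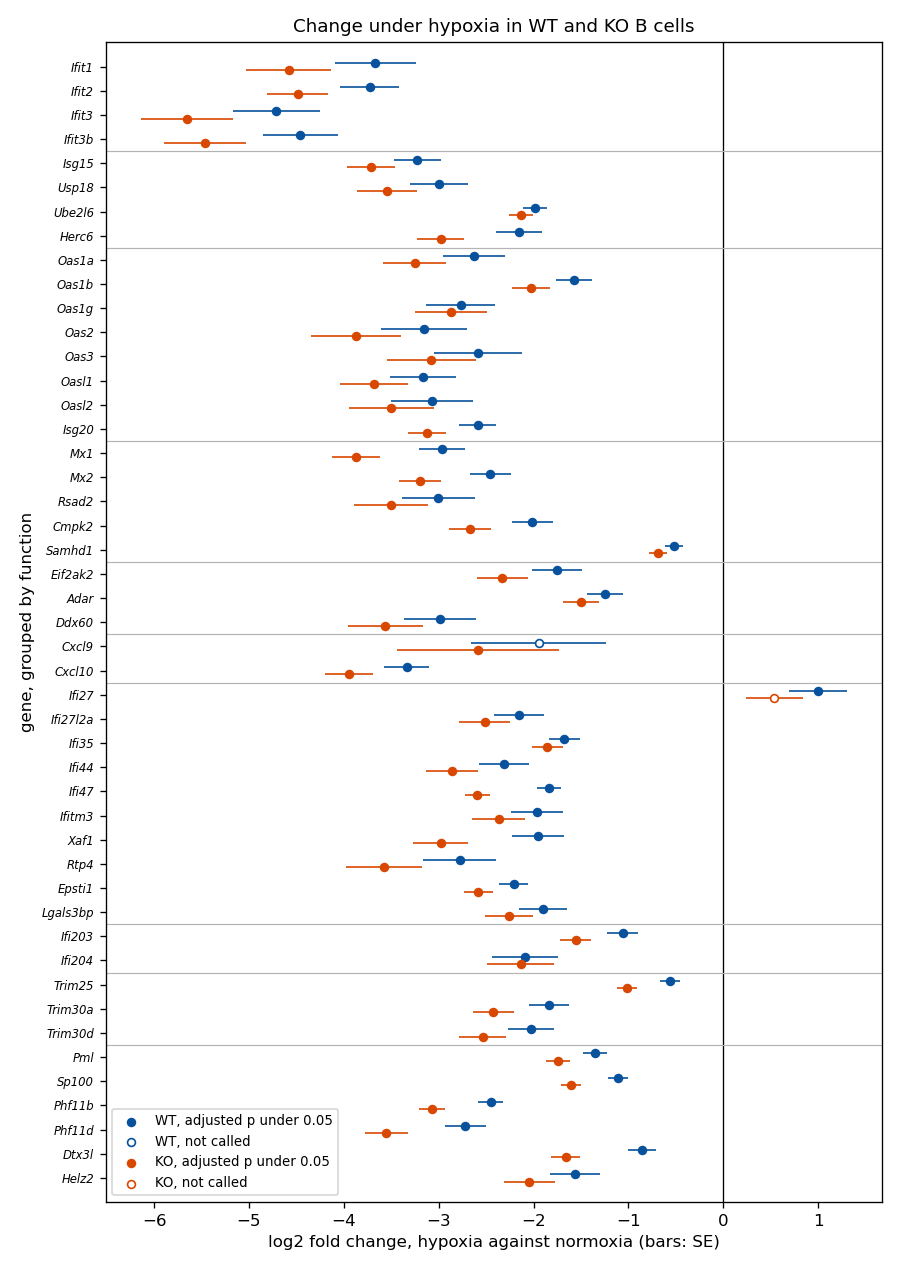
The log2 fold change of hypoxia against normoxia (x axis, 3 libraries against 3) for each member (y axis) in WT (blue) and KO (orange). Bars are SE from the fit to all 12 libraries, and filled symbols passed an adjusted p of 0.05. Changes ran from -4.71 (Ifit3) to 1.00 (Ifi27) in WT and from -5.66 (Ifit3) to 0.54 (Ifi27) in KO.

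The IFIT proteins bind viral RNA whose cap lacks the host's methyl marks and block its translation, and this family fell furthest. Its 4 genes lie side by side on chromosome 19, from Ifit2 (34550694 to 34576419) to Ifit1 (34640871 to 34650009), with Ifit3 and Ifit3b between them (GRCm38, GENCODE). Ifit2, which had the smallest adjusted p of the family, was at 260, 221 and 357 CPM in WT normoxia and at 21.6, 13.6 and 28.02 CPM in WT hypoxia. Its level in KO cells was 342, 339 and 294 CPM in normoxia and 14.7, 9.93 and 18.9 CPM in hypoxia. The lowest normoxic library was thus far above the highest hypoxic library in both genotypes. Ifit2 fell by 3.73 ± 0.31 on the log2 scale in WT (SE, adjusted p = 1.8e-05) and changed by -4.485 ± 0.323 in KO (adjusted p = 5.88e-06). Ifit3 fell from 371 ± 44.7 to 14.1 ± 3.31 CPM in WT (SD, n = 3), a 26.3-fold lower mean, and from 392 ± 4.90 to 7.78 ± 5.74 CPM in KO, which was 50.4-fold lower. In KO hypoxia Ifit3 was at 6.53, 2.77 and 14.0 CPM, so relative to their mean the libraries of that group were further apart than those of any other group. Ifit3b (-4.46 and -5.46) and Ifit1 (-3.67 and -4.58) fell as well (log2 changes in WT and KO), and their interactions of -1.01 ± 0.55 and -0.91 ± 0.57 did not pass (adjusted p = 0.605 and 0.66). Ifit3 and Ifit3b share sequence: 51.2% of the 50-base stretches of Ifit3 transcripts also occur in Ifit3b, so the split of reads between them is uncertain.

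ISG15 is a ubiquitin-like protein that is attached to viral and host proteins. UBE2L6 is its conjugating enzyme, HERC6 the ligase of mouse cells, and USP18 removes it and also restrains the interferon receptor. All 4 genes fell in both genotypes. Ube2l6 was at 121, 117 and 124 CPM in WT normoxia and at 32.1, 24.5 and 34.8 CPM in WT hypoxia, a log2 change of -1.98 ± 0.13 (adjusted p = 3.74e-07). In KO its levels were 148, 120 and 111 CPM and then 30.8, 27.6 and 27.8 CPM, a change of -2.13 ± 0.13 (adjusted p = 1.9e-07). Its promoter window, printed above, held no match to the interferon element. Isg15, with 3 overlapping matches, changed by -3.225 ± 0.249 in WT and -3.714 ± 0.255 in KO, from 163, 170 and 168 CPM to 18.7, 13.0 and 21.9 CPM in WT. Log2 changes in WT and KO were -2.99 and -3.55 for Usp18 and -2.16 and -2.98 for Herc6.

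The OAS enzymes make oligoadenylates in the presence of double-stranded RNA, which switch on an RNase that degrades RNA, and ISG20 is an RNA exonuclease. All 8 genes of this class fell in both genotypes, with log2 changes of -1.57 (Oas1b) to -3.16 (Oasl1) in WT and -2.03 (Oas1b) to -3.87 (Oas2) in KO. Isg20 had the smallest adjusted p: 68.3, 72.9 and 81.2 CPM in WT normoxia against 12.7, 10.5 and 13.8 CPM in WT hypoxia, a log2 change of -2.59 ± 0.20 (adjusted p = 2.14e-06). In KO it fell by 3.125 ± 0.202 (adjusted p = 4.56e-07), from 99.9, 92.5 and 71.4 CPM to 11.6, 6.77 and 11.9 CPM. Oas2 was at 563, 541 and 560 CPM in KO normoxia and at 31.8, 15.9 and 66.1 CPM in KO hypoxia, so even library 3, the highest, was far below the normoxic libraries. Oas3, Oasl2, Oas1a and Oas1g lay between these values. Oas1a shares 57.6% of its stretches with Oas1g, which leaves their separate values uncertain. Oas1b is annotated as a polymorphic pseudogene in GENCODE, as is Mx2.

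Among the GTPases and nucleotide enzymes, MX1 traps viral ribonucleoproteins, viperin (Rsad2) makes a nucleotide that ends viral RNA chains, CMPK2 supplies nucleotides in mitochondria beside it, and SAMHD1 depletes the building blocks of DNA. In WT, Mx1 fell by 2.97 ± 0.24 (adjusted p = 9.47e-06), from 364, 343 and 437 CPM to 49.97, 37.9 and 58.5 CPM. In KO it fell by 3.875 ± 0.253 (adjusted p = 1.49e-06), from 482, 485 and 412 CPM to 28.5, 21.7 and 43.8 CPM. Changes in WT and KO were -2.45 and -3.20 for Mx2, -3.003 and -3.503 for Rsad2, and -2.01 and -2.67 for Cmpk2. Samhd1 had the smallest change of all called members in both genotypes, -0.52 ± 0.10 (adjusted p = 0.0013) and -0.69 ± 0.10 (adjusted p = 0.000144). Its libraries still did not overlap, at 1039 to 1280 CPM in WT normoxia and 767 to 814 CPM in WT hypoxia.

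PKR (Eif2ak2) halts translation when it binds double-stranded RNA, ADAR edits adenosines in such RNA, and DDX60 is a helicase-like protein linked to RNA sensing. All 3 fell. Ddx60 had the smallest adjusted p of the class in WT, with 76.6, 62.5 and 123.2 CPM in normoxia and 11.1, 9.29 and 12.7 CPM in hypoxia (log2 change -2.99 ± 0.38, adjusted p = 0.000334). Adar had it in KO, with 437, 442 and 420 CPM in normoxia and 147, 112 and 201 CPM in hypoxia (-1.50 ± 0.19, adjusted p = 0.000109). Changes were -1.75 and -2.33 for Eif2ak2. Adar exons overlap those of Chrnb2 on the other strand, and whether reads were counted by strand is not given in the sources used here.

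CXCL9 and CXCL10 are chemokines that draw activated T cells through the receptor CXCR3. Cxcl10 was at 13.4, 12.2 and 13.6 CPM in WT normoxia and at 1.01, 1.20 and 1.65 CPM in WT hypoxia, a log2 change of -3.338 ± 0.235 (adjusted p = 6.72e-07). In KO it fell by 3.95 ± 0.25 (adjusted p = 2.64e-07), from 6.73, 10.2 and 11.3 CPM to 0.519, 0.548 and 0.751 CPM. Cxcl9 was the least read member, with 34, 26 and 9 reads in WT normoxia and 10, 4 and 3 in WT hypoxia. These counts overlapped, and the change of -1.95 ± 0.71 did not pass (adjusted p = 0.0576). With the library number as a block it did (-1.93, adjusted p = 0.0411). In KO the reads went from 10, 15 and 12 to 2, 0 and 4, a change of -2.58 ± 0.86 (adjusted p = 0.0362) that was not called without KO normoxia library 2 or 3 or without KO hypoxia library 1 or 2 (adjusted p = 0.0585 to 0.106).

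The class of IFI-named and membrane proteins holds 10 genes, of which 9 fell in both genotypes. Ifi47, an immunity-related GTPase, had 291, 338 and 318 CPM in WT normoxia and 88.9, 79.0 and 96.4 CPM in WT hypoxia, a change of -1.84 ± 0.13 (adjusted p = 5.52e-07). In KO it fell by 2.59 ± 0.13 (adjusted p = 3.72e-08), from 388, 369 and 342 CPM to 52.2, 55.5 and 74.7 CPM. Ifitm3, whose product blocks the fusion of virus and endosome, changed by -1.96 and -2.37, and Xaf1, linked to apoptosis, by -1.96 and -2.98. Rtp4 (-2.778 and -3.575), Ifi44 (-2.31 and -2.86), Epsti1 (-2.21 and -2.58), Lgals3bp (-1.90 and -2.26) and Ifi35 (-1.676 and -1.855) fell as well. Ifi27l2a had by far the highest level per exon length of all members in WT normoxia, at 1848 RPKM (CPM per kilobase of exon), and changed by -2.15 in WT and -2.51 in KO.

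Ifi27, which lies next to Ifi27l2a on chromosome 12 (103434211 to 103440239 and 103442167 to 103443680) and encodes a related small membrane protein, went the other way. It was at 61.1, 69.2 and 59.4 CPM in WT normoxia and at 148, 107 and 124 CPM in WT hypoxia. All 3 hypoxic libraries were above all 3 normoxic ones, and the rise was 1.00 ± 0.30 (adjusted p = 0.0338). With the library number as a block the rise was 0.99 and did not pass (adjusted p = 0.106), and it also did not pass without WT normoxia library 1, 2 or 3 or WT hypoxia library 1 or 3 (adjusted p = 0.0779 to 0.107), nor without any 1 of the KO normoxia libraries or KO hypoxia library 1, which enter the fit (adjusted p = 0.0503 to 0.0525). In KO it was at 70.2, 76.0 and 61.6 CPM in normoxia and at 95.7, 53.4 and 153 CPM in hypoxia, where the groups overlapped (0.54 ± 0.30, adjusted p = 0.209). Without KO hypoxia library 2, the lowest, that value was 0.865 (adjusted p = 0.00465). None of the 50-base stretches of the Ifi27 transcripts occurs in another gene.

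Among the nuclear proteins, IFI203 and IFI204 are PYHIN proteins, of which IFI204 binds DNA. Ifi203 fell by 1.06 ± 0.16 in WT (adjusted p = 0.000378) and changed by -1.555 ± 0.165 in KO (adjusted p = 1.75e-05), from 907 to 1365 CPM down to 456 to 560 CPM in WT. Ifi204 changed by -2.09 and -2.14. TRIM25 is a ubiquitin ligase that activates the RNA sensor RIG-I, and TRIM30a a mouse regulator of Toll-like receptor signalling. Trim30a fell by 1.84 ± 0.21 in WT (adjusted p = 5.95e-05), from 1075, 990 and 1412 CPM to 343, 261 and 366 CPM, and changed by -2.426 ± 0.215 in KO (adjusted p = 6.98e-06), from 1481, 1376 and 1284 CPM to 247, 184 and 340 CPM. Trim30d changed by -2.02 and -2.53. Trim25 changed by -0.56 ± 0.10 and -1.01 ± 0.10, the next smallest change among called members in both genotypes.

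PML builds the nuclear bodies that also hold SP100, both of which restrict DNA viruses, DTX3L is a ubiquitin ligase, HELZ2 a helicase that acts as a coactivator, and the Phf11 genes encode PHD finger proteins. All 6 genes fell in both genotypes. Phf11b had the smallest adjusted p of all members, with 158, 169 and 169 CPM in WT normoxia and 30.8, 28.6 and 31.4 CPM in WT hypoxia (-2.45 ± 0.13, adjusted p = 7.09e-08). In KO it went from 186, 171 and 162 CPM to 18.7, 16.8 and 26.3 CPM (-3.07 ± 0.14, adjusted p = 2.14e-08). Its libraries within a group were close together, which distinguishes it from members such as Oas3 with larger falls and larger errors. Changes in WT and KO were -2.72 and -3.55 for Phf11d, -1.35 and -1.74 for Pml, -1.11 and -1.61 for Sp100, -0.855 and -1.663 for Dtx3l, and -1.562 and -2.045 for Helz2. Phf11b shares 47.05% of its stretches with other genes, most with Phf11a (25.99%), followed by Phf11c and Gm6904. Dtx3l exons overlap 458 bases of Parp9 on the other strand.

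Level and change were compared across genes. Across the 47 members the normoxic level in WT (RPKM) and the log2 change in WT had a Spearman rho of 0.18 and, with log2 RPKM, a Pearson r of 0.08, given as a description over genes that share the same libraries. Members with a match to the interferon element in their window had a median WT change of -2.70 (16 genes, -4.71 to -1.06) and those without of -1.95 (22 genes, -3.73 to -0.52), and in KO the medians were -3.17 and -2.58. The ranges overlapped widely, as Ifit2 at -3.73 had no match.

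The genes upstream of these promoters did not all move the same way. Among 21 interferon ligand genes only Ifng, the type II ligand, had enough reads to be tested. It fell by 1.33 ± 0.34 in WT (adjusted p = 0.0103), from 47, 124 and 60 reads to 25, 32 and 27, and changed by -1.05 ± 0.35 in KO (adjusted p = 0.0368), from 69, 37 and 42 to 27, 20 and 24. The 18 type I genes together had 19, 27 and 40 reads in WT normoxia and 2, 7 and 13 in WT hypoxia, and 70, 34 and 30 against 6, 20 and 5 in KO. In CPM this was 0.687 to 1.11 against 0.0674 to 0.429 in WT and 1.04 to 1.95 against 0.163 to 0.645 in KO, with no overlap. Reads of the near-identical Ifna genes cannot be assigned with certainty. Ifnb1 had 2, 12 and 7 reads in WT normoxia and 0, 2 and 0 in WT hypoxia, and 13, 9 and 0 against none in KO. The type III genes Ifnl2 and Ifnl3 had 22 reads in WT normoxia and 22 in KO normoxia and none in the 6 hypoxic libraries. Against a limit of 3 reads over the 3 libraries of a group they were at least 6.8-fold lower in WT and at least 7.4-fold lower in KO, counting error only.

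Of all genes 11.4% were called higher in WT and 14.5% in KO, and of 9 receptor and kinase genes 2 rose in both genotypes. These were Ifnlr1, the type III receptor chain (0.70 ± 0.20 in WT and 0.60 ± 0.21 in KO, adjusted p = 0.0217 and 0.0413), and Ifngr1, a chain of the type II receptor (0.56 ± 0.08 and 0.55 ± 0.08, adjusted p = 0.000138 and 0.000151). The kinase Tyk2 changed by -0.27 ± 0.08 and -0.43 ± 0.08 (adjusted p = 0.0171 and 0.000888), and Il10rb changed in KO by -0.264 ± 0.085 (adjusted p = 0.0316). Both chains of the type I receptor had log2 changes of -0.09 and -0.045 for Ifnar1 and -0.053 and -0.154 for Ifnar2 that did not pass.

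The transcription factors were split between genes that fell and genes that did not pass the test. Irf7, the factor that amplifies interferon production, changed by -2.71 ± 0.26 (adjusted p = 2.84e-05) and -3.27 ± 0.27 (adjusted p = 7.78e-06), from 760, 674 and 747 CPM to 122, 92.9 and 118 CPM in WT. Stat2 changed by -1.095 ± 0.099 and -1.233 ± 0.099 (adjusted p = 5.29e-06 and 1.45e-06). Irf9, Irf1 and Irf8 fell by less. Irf2, Irf3 and Irf5 had log2 changes of -0.15 to -0.04 that did not pass. Socs1, a brake on JAK kinases that interferon itself induces, changed by -0.952 ± 0.119 and -1.055 ± 0.119 (adjusted p = 6.84e-05 and 2.55e-05). Of the other 5 brakes only Pias1 passed, with a rise of 0.29 ± 0.08 in KO (adjusted p = 0.0193).

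Nucleic acid sensing genes fell for 9 of 14 in WT and 11 of 14 in KO, where 16.3% and 15.7% of all genes were called lower. The largest changes were in Zbp1, a sensor of left-handed nucleic acid (-3.63 ± 0.37 and -4.52 ± 0.39, adjusted p = 9.44e-05 and 2.73e-05), Tlr3 (-2.63 ± 0.29 and -3.295 ± 0.306, adjusted p = 2.37e-05 and 5.29e-06) and Ifih1, which encodes MDA5 (-2.45 ± 0.32 and -3.21 ± 0.33, adjusted p = 0.000297 and 5.59e-05). Zbp1 was at 283 to 355 CPM in WT normoxia and 19.3 to 29.8 CPM in WT hypoxia. The adaptor Mavs and the kinase Tbk1, which relay the signal, had changes of -0.065 to 0.065 that did not pass.

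**Figure D4:**
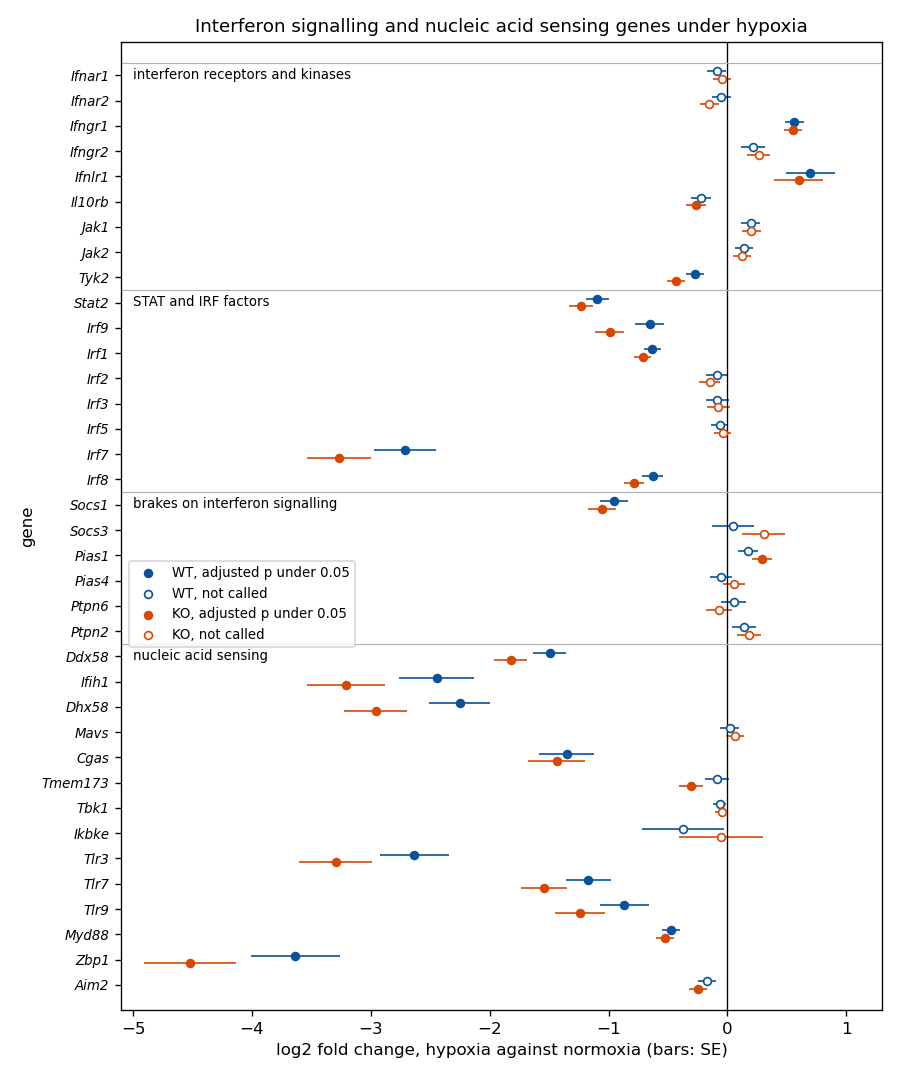
The log2 fold change of hypoxia against normoxia (x axis, bars are SE) for genes of interferon signalling and nucleic acid sensing (y axis, by list) in WT (blue) and KO (orange); filled symbols passed an adjusted p of 0.05. Irf7 and Zbp1 lie far to the left, while Ifnar1, Ifnar2, Irf3, Mavs and Tbk1 lie near 0 and Ifngr1 and Ifnlr1 to the right.

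Markers of another cell type moved with the same comparison. Plasmacytoid dendritic cells are the classical producers of type I interferon and can be found in bone marrow, and their 7 markers summed to 1264 to 1362 CPM in WT normoxia, 890 to 1031 in WT hypoxia, 1203 to 1422 in KO normoxia and 714 to 782 in KO hypoxia. In WT 4 of the 7 were called lower and in KO all 7, where 16.3% and 15.7% of all genes were. Klk1 changed most, from 87.3, 75.2 and 90.3 CPM to 5.47, 7.64 and 9.21 CPM in WT (-3.50 ± 0.17, adjusted p = 2.89e-08). Siglech, the most read of them, was at 590, 598 and 653 CPM in WT normoxia and 565, 476 and 542 CPM in WT hypoxia, which did not pass (-0.22 ± 0.09, adjusted p = 0.101), and fell in KO (-0.645 ± 0.094, adjusted p = 0.000201). With the mean log2 level of the 7 markers as a covariate no member was called in either genotype (6 members in WT and 4 in KO had an unadjusted p under 0.05), and the median changes were -1.63 and -1.93, with 44 and 42 of 47 below 0. The marker level did not overlap between normoxia and hypoxia, so in that fit the markers and the oxygen condition cannot be told apart. With Siglech alone as covariate, an alternative chosen after seeing the data, 45 members were called lower in WT (median -2.21) and 13 in KO (median -2.29).

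The summed levels of 10 monocyte and macrophage markers overlapped between conditions (2933 to 3390 and 2385 to 3155 CPM in WT, 2108 to 2833 and 1461 to 2300 CPM in KO), as did those of 10 neutrophil markers. Among the monocyte and macrophage markers 2 were called higher and 2 lower in WT (log2 changes of -1.55 for Ly6c2 to 2.36 for Cd14) and 3 higher and 3 lower in KO (-1.89 for Ly6c2 to 2.32 for Cd14). Among the neutrophil markers 2 were called higher and none lower in each genotype. Of all genes 11.4% were called higher and 16.3% lower in WT, and 14.5% and 15.7% in KO. With the monocyte and neutrophil levels as covariates 45 members were called lower in each genotype. The 9 T and NK cell markers summed to 192 to 253 CPM in WT normoxia and 70.5 to 85.4 CPM in WT hypoxia, and to 210 to 230 CPM and 53.9 to 64.4 CPM in KO, with no overlap. Called lower were Cd4 and Cd8a in both genotypes (-1.75 and -1.47 in WT, -2.27 and -1.63 in KO) and Cd3d in KO (-1.15), while Cd3e, which defines T cells, was at 0.949 to 4.26 CPM in the 12 libraries. The 6 erythroid markers summed to 173 to 291 and 72.8 to 309 CPM in WT and to 148 to 2569 and 155 to 639 CPM in KO, overlapping between conditions, with 1 called higher in WT. The part of other cells in the fall was not tested beyond these fits.

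No member was called between KO and WT in normoxia (edgeR quasi-likelihood test, where 0.0228% of all genes were called in either direction), 3 members had an unadjusted p under 0.05, and DESeq2 called none. The log2 differences ran from -0.90 to 0.61 with a median of 0.12, and the smallest adjusted p was 0.499.

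In hypoxia 6 of 47 members were called lower in KO than in WT, against 5.12% of all genes, and none was called higher. The median difference was -0.53, where the median of all genes was -0.03. Below 0 were 46 of the 47 differences, against 9478 of 17506 genes. Cxcl10 differed by -1.085 ± 0.271 (adjusted p = 0.0248), at 0.519, 0.548 and 0.751 CPM in KO and 1.01, 1.20 and 1.65 CPM in WT. Phf11d differed by -1.04 ± 0.23 (adjusted p = 0.0141), at 1.34, 1.19 and 2.22 CPM against 3.41, 2.57 and 3.80 CPM. Dtx3l differed by -0.57 ± 0.15 (adjusted p = 0.0296), at 98.8, 81.4 and 122 CPM against 163, 129 and 156 CPM. For each of these genes every KO library was below every WT library. Phf11b (-0.56 ± 0.13, adjusted p = 0.0175), Ifi47 (-0.535 ± 0.123, adjusted p = 0.0166) and Sp100 (-0.38 ± 0.10, adjusted p = 0.034) showed smaller differences, also without overlap. These 6 genes were picked by the same test, and the share of all genes without overlap in this comparison was not computed. The IFIT genes, which fell furthest in hypoxia, had differences of -0.54 to -1.14 that did not pass. Of the signalling genes Ifngr1 (-0.335 ± 0.076, adjusted p = 0.0158) and Ptpn6, a phosphatase (-0.36 ± 0.11, adjusted p = 0.0498), were lower in KO.

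**Figure D5:**
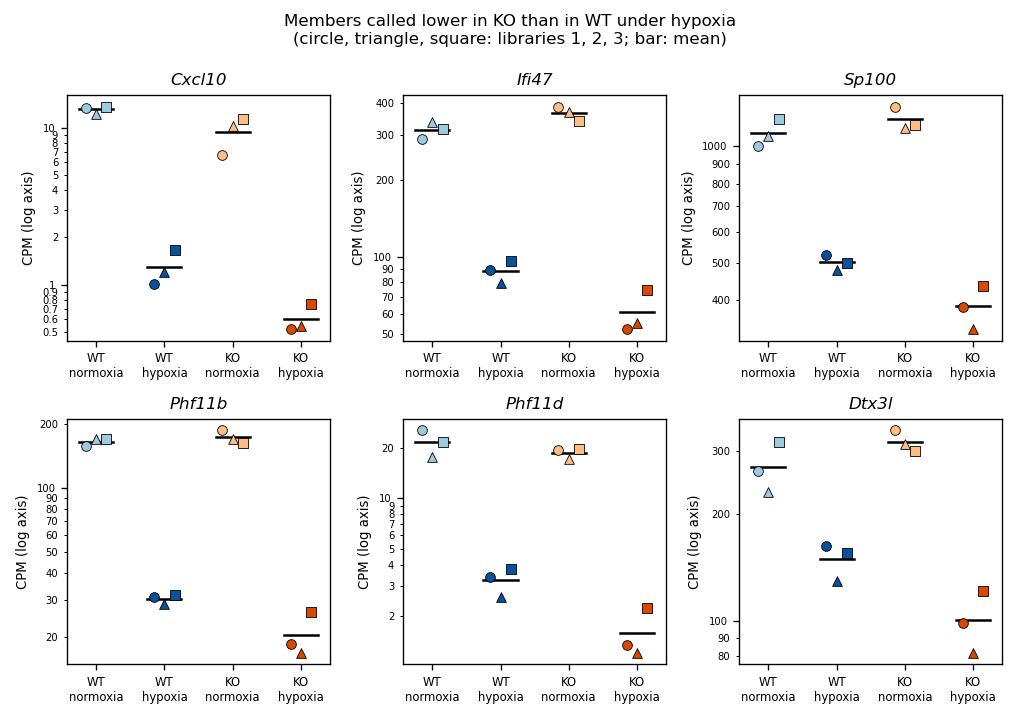
CPM per library (y axis, log scale) of the 6 members called lower in KO than in WT hypoxia, in the 4 groups (x axis); symbols are libraries 1, 2 and 3 and bars the means. In each panel the 3 KO hypoxia libraries lie below the 3 WT hypoxia libraries, with library 3 the highest of the KO group.

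The count of 6 depended on the libraries. It was 0 without KO hypoxia library 1 or 2, 20 without KO hypoxia library 3, 1 without WT hypoxia library 1 or 3 and 4 without WT hypoxia library 2, with medians of -0.39, -0.20, -0.74, -0.45, -0.36 and -0.61 in that order. The share of all genes called in these fits is not given here, so whether the shift was particular to the members was not tested. In the libraries without Y-linked reads, 1 of WT hypoxia and 2 of KO hypoxia, no member was called and 6 had an unadjusted p under 0.05, with a median of -0.56 and 46 of 47 differences below 0, while 6 were called with Y-linked reads as a covariate. Markers of other cells also differed between the genotypes in hypoxia: plasmacytoid dendritic cell markers summed to 744 ± 34.8 CPM against 982 ± 79.5 CPM in WT hypoxia, with 4 of 7 called lower, and monocyte and macrophage markers to 1921 ± 426 CPM against 2763 ± 385 CPM, with 3 of 10 called lower. Of all genes 5.12% were called lower in this comparison. Erythroid markers went the other way, at 463 ± 268 CPM in KO hypoxia and 201 ± 119 CPM in WT hypoxia, with overlapping libraries, a median log2 difference of 0.96 and none of 6 called. No member was called with the monocyte and neutrophil markers as covariates (median -0.16, 4 with an unadjusted p under 0.05), with the plasmacytoid dendritic cell markers (median -0.10, 1 with such a p) or with Siglech (median -0.11, 2 with such a p).

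Whether the fall itself was larger in KO cells was asked by the interaction, the KO change minus the WT change, which uses the same libraries. No member was called by the edgeR quasi-likelihood test, where 0.417% of all genes were called in either direction. The median was -0.54, where that of all genes was 0.03. All 47 values were below 0, against 7972 of 17506 genes, and 13 had an unadjusted p under 0.05. The members share the same libraries, so their values are not independent of each other. Ifi47 had the smallest adjusted p, with -0.75 ± 0.17 (adjusted p = 0.091). DESeq2 called 4 members, Ifi47 (-0.77, adjusted p = 0.00433), Dtx3l (-0.83, adjusted p = 0.0145), Sp100 (-0.52, adjusted p = 0.0302) and Phf11b (-0.64, adjusted p = 0.0412). The share of all genes that DESeq2 called is not given here. Without KO hypoxia library 3 the median was -0.81 and 3 members were called by edgeR, and without KO hypoxia library 2 it was -0.28 and none was called.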

How the data were processed

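RNA of 12 libraries (4 groups of 3) was counted per gene. The deposited table holds raw read counts per gene without normalization by the authors. The submitters' processing notes name CASAVA, Bowtie 0.12.2 and the mm10 build. Which counter, annotation release and strand setting were used is not given in the sources used here. Coordinates, exon lengths and biotypes came from GENCODE for the same build.

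Counts were tested with edgeR 4.0.16 (R 4.3.3): TMM scaling, the default filter on low counts (17506 genes tested), 1 mean per group fitted to all 12 libraries by quasi-likelihood with robust dispersions, F tests and Benjamini-Hochberg adjustment over all tested genes, with calls at an adjusted p of 0.05. The fit was tested on simulated counts with known changes in the WT comparison. It called 79.4% of log2 changes of size 1, 95.9% of those of size 2 and 0.0654% of unchanged genes. The simulation gave every gene the same dispersion and did not pair libraries, so these shares do not carry over to the real counts. Intervals and limits on low counts cover counting error only. The SE of a log2 change was derived from the edgeR test, as the size of the change divided by the square root of F. RPKM was CPM divided by exon length in kilobases. Promoters came from RefSeq.

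WT libraries of the same number deviated together from their group means across genes (r = 0.444, 0.65 and 0.618). The main fit did not pair them, and for WT the blocked values are given where they change a call. For KO numbers r was 0.003, 0.147 and 0.438, and the block by library number paired these as well.

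The members and lists were chosen with earlier results of these data known. Named with full statistics were the called members with the smallest adjusted p in each functional class, members against the main direction and members that did not pass. From each pathway list came the called genes that rose or fell most, at most 3 each way. Ifit3, Isg15, Oas2, Samhd1, Trim25, Ifnar1, Ifnar2, Irf2, Irf3, Irf5, Irf9, Irf1, Irf8, Mavs and Tbk1 were added after their values were seen. Alternatives were RLE size factors, total counts alone, a fit without any filter, another on genes reaching a CPM of 1 in at least 3 libraries, only the groups compared, the replicate block, DESeq2 1.42.0, covariates for Y-linked genes and for marker lists, only libraries without Y-linked reads, and leaving out each library. Siglech as a covariate was chosen after seeing the data. Some genes of the lists are not reported here.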

Additional observations from a re-analysis of the deposited data

How the results depend on the processing

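Counts of members called lower in hypoxia (45 in WT, 46 in KO) stayed within 1.5 times under RLE size factors, total counts alone, no filter, a CPM filter, only the groups compared, the replicate block, DESeq2, the Y-linked covariate and the monocyte and neutrophil covariates, and without each library (45 to 46 in both). With the plasmacytoid dendritic cell covariate the counts were 0 and 0, and among named members Adar (0.11) and Ube2l6 (0.14) then changed sign in KO. With Siglech as covariate the KO count was 13. In libraries without Y-linked reads, 1 per condition in WT, where the lone library is assumed to vary like the others, the WT count was 12, with a median of -2.34 and 46 of 47 changes below 0. Between KO and WT in hypoxia the 6 calls became 0 with the monocyte and neutrophil, the plasmacytoid dendritic cell or the Siglech covariate and in libraries without Y-linked reads, and 0 to 20 without single libraries. In the interaction 3 members were called with no filter, 4 with DESeq2 and 0 to 3 without single libraries. With the replicate block the counts were 46 in WT and 46 in KO, 8 between KO and WT in hypoxia and 1 in the interaction. That block paired libraries by number within each genotype. Between the genotypes it matched equal numbers, for which r was 0.036, 0.263 and 0.059 in hypoxia. In WT the block changed the calls of Cxcl9 and Ifi27 and of no other member. Between KO and WT in normoxia the count was 0 under every alternative run. The causes of these shifts were not tested, and the shares of all genes called under the alternatives are not given here. Depth limits the interferon ligands and Cxcl9, which had too few reads for a firm value.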
